A study of Mus musculus with 14 samples.

Results

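A set of 38 genes that carry cells through mitosis was examined in mouse small cell lung cancer: 9 mitotic kinases, cyclins and their regulators including the transcription factor gene Foxm1, 7 genes of the spindle checkpoint with Cdc20 and separase, 9 of the centromere and kinetochore, 6 kinesins, and 7 for condensin, Top2a and Mki67. The genes were chosen by symbol, with the Aurora kinases and the chromosomal passenger complex left out. Each symbol matched 1 Ensembl identifier, which makes 38 of the 46517 genes in the table. All 38 had a value of at least 1 FPKM (mapped fragments scaled for transcript length and library size) in at least 3 libraries, the condition under which 15719 genes were tested.

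RNA-seq was done on 14 lung tumours from 2 genetically engineered mouse models, and the study compared gene expression between them. Both models carry Rb1 fl/fl and Trp53 fl/fl, which encode the tumour suppressors RB and p53, and in both an adenovirus with Cre recombinase under the Cgrp promoter was given to start tumours. RPM mice (n = 11) also carry LSL-Myc T58A-IRES-Luc, a Myc allele with a linked luciferase that is silent until Cre removes its stop cassette. Of these, 9 tumours were LSL/LSL, with 2 copies of the allele, and replicates 2 and 4 were LSL/+. RPR2 mice (n = 3) also carry p130 fl/fl, the Rbl2 gene of the RB family member p130. The tumours were untreated and macro-dissected, so normal lung and stroma may be included, and RNA came from fresh or flash frozen tissue. Mouse ages and the separateness of the animals are not given in the labels. The numbers in 2 pairs of RPM titles are shared (replicates 6 and 7, replicates 10 and 11). The p-values therefore measure only the spread between these samples.

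Entry into mitosis is driven by CDK1 bound to cyclin A or cyclin B, and is opened by CDC25 phosphatases. The kinetochore then couples chromosomes to spindle microtubules, kinesins build the spindle and move chromosomes, condensin compacts the chromosomes, and the spindle checkpoint holds back CDC20 until all are attached. Genes for these steps are transcribed together late in the cell cycle. In resting cells the DREAM complex, which holds p130 or its relative p107, keeps them low through a promoter element called the cell cycle genes homology region, and in dividing cells B-MYB, FOXM1 and the CCAAT-binding factor NF-Y take part in their activation. Small cell lung cancer is a neuroendocrine tumour known for rapid division and for loss of RB and p53.

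The promoters of these genes show what the set has in common in sequence. RefSeq windows (GRCm38.p6), which run from 250 bases before an annotated start to 50 after it, matched 32 of the 38 genes. Kif20a, Ccna2, Cdc25c, Spc24, Foxm1 and Smc4 had no window. The window of Kif2c (chr4:117178723-117179022, minus strand) lies inside the gene, whose GENCODE start is at 117182639. Its motif is still counted below. The windows of 7 genes are printed 5′ to 3′ on the gene's own strand: 4 with both motifs and large values in the tumours (Cdk1, Ccnb2, Cdc20, Top2a), the gene with the largest difference between the models (Cenpa), the gene with the most negative difference (Cdc25b), and a gene with a large difference and neither motif (Nuf2). Capitals mark matches on either strand. The homology region was searched as TTTGAA and as TTCGAA, and the NF-Y box was searched as CCAAT. The windows lie at chr10:69352863-69353162 (minus strand) for Cdk1, chr9:70421505-70421804 (minus strand) for Ccnb2, chr4:118437294-118437593 (minus strand) for Cdc20, chr11:99024140-99024439 (minus strand) for Top2a, chr5:30666636-30666935 (plus strand) for Cenpa, chr2:131186698-131186997 (plus strand) for Cdc25b and chr1:169531415-169531714 (minus strand) for Nuf2.
Cdk1: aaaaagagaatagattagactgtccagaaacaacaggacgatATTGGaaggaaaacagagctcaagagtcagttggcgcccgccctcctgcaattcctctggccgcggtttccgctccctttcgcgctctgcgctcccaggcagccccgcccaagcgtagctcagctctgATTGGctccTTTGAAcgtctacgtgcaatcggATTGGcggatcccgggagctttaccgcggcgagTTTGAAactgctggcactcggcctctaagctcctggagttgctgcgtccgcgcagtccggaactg
Ccnb2: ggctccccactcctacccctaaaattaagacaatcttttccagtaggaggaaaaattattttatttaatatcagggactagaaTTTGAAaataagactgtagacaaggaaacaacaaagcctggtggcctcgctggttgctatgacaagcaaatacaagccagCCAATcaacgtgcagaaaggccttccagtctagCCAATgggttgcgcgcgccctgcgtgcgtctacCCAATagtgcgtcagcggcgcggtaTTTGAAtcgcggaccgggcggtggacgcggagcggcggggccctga
Cdc20: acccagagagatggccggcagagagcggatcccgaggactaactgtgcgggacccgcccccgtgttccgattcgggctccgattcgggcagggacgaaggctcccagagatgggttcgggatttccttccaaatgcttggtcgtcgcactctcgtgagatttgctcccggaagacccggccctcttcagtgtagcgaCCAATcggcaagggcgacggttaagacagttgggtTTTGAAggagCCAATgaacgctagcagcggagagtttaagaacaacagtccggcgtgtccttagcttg
Top2a: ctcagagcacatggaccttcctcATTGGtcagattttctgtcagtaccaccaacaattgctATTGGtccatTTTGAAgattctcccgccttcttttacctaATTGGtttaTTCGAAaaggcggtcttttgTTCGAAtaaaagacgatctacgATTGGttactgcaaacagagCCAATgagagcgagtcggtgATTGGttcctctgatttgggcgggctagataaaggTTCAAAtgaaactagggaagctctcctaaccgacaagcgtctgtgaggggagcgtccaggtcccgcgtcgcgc
Cenpa: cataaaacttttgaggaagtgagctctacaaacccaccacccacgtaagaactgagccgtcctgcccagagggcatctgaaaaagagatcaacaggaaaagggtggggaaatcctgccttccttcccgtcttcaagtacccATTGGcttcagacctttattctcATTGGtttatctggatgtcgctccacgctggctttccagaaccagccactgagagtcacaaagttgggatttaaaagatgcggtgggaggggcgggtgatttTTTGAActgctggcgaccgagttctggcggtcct
Cdc25b: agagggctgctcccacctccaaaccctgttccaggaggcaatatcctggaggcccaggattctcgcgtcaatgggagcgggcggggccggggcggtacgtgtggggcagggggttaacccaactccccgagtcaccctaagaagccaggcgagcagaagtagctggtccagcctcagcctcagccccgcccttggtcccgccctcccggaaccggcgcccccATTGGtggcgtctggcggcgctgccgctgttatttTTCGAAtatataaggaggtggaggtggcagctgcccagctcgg
Nuf2: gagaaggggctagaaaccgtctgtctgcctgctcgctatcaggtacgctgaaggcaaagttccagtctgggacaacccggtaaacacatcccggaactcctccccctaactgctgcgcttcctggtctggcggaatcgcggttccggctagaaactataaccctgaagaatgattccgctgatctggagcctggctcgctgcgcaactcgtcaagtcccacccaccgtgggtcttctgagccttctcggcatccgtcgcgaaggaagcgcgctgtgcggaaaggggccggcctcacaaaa

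The homology region motif was present in 24 of the 32 genes (75.0%), against 21.7% of the 27025 genes with a window. CCAAT was present in 26 of 32 (81.2%), against 41.1% of all genes, and both were present in 21 of 32 (65.6%), against 8.61%. In 21 genes a homology region motif began within 50 bases of the start site. In Cdk1 it began 71 and 15 bases before the start, in Cdc20 18 bases before it, in Cenpa 16 bases after it and in Cdc25b 7 bases after it. Top2a held 4 such motifs and 6 CCAAT boxes. The E-box CACGTG, a motif bound by MYC with MAX, was present in 2 of 32 (6.25%), against 8.09% of all genes. The windows of Nuf2, Ncaph and Mad2l1 held none of these letters. A match describes the window only.

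**Figure D1:**
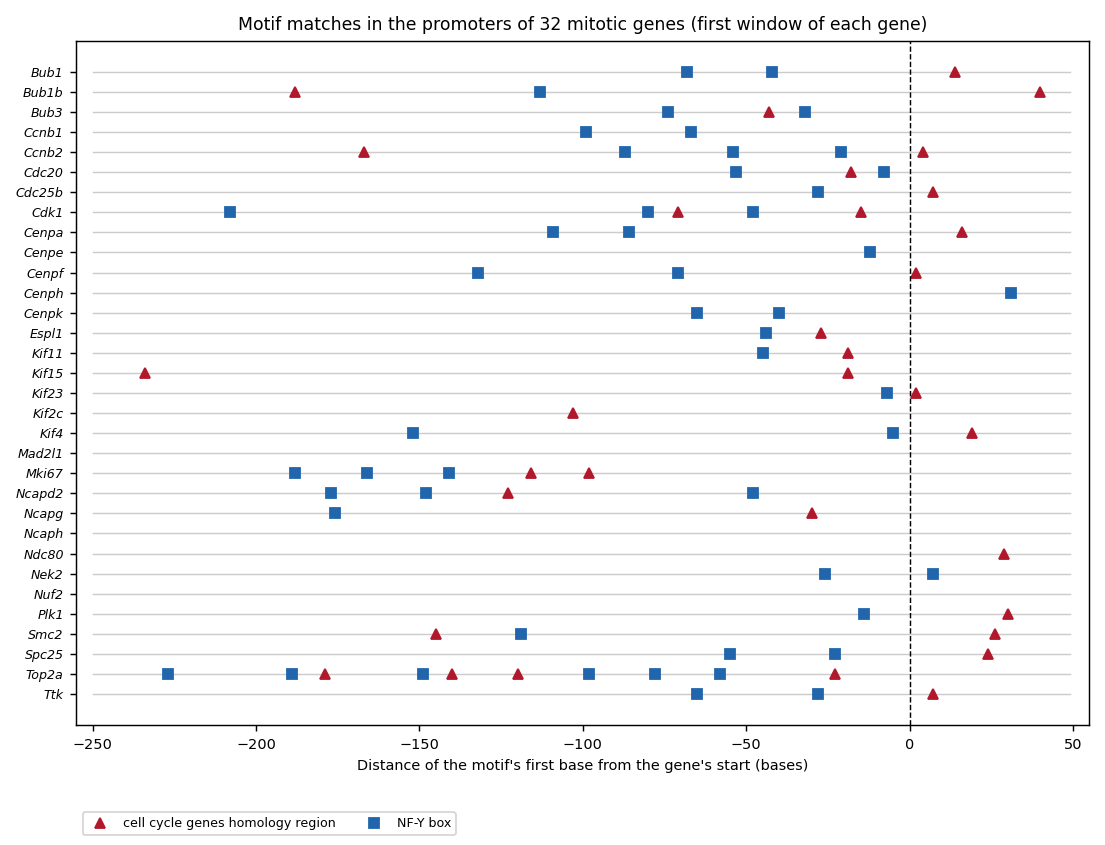
Position of motif matches in the promoter windows of 32 mitotic genes. The x axis is the distance in bases of the motif's first base from the start annotated for the window (dashed line). Each row is 1 gene, triangles are homology region motifs and squares are NF-Y boxes. The homology region motifs of 21 genes begin within 50 bases of the start.

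The libraries were first checked against their labels. Depth, estimated from the steps in low FPKM values, was 17.2 to 19.7 M reads in RPM and 21.5 to 22.6 M in RPR2. Myc ranged from 48.4 to 384 FPKM in RPM, and the RPR2 tumours had 4.68, 6.83 and 13.6 FPKM. Rbl2 did not separate the models, with 3.43 to 9.90 FPKM in RPM and 3.58, 7.55 and 3.34 FPKM in RPR2, and gene-level values do not show whether the floxed part was transcribed. The summed FPKM of 8 neuroendocrine markers was 218 to 1276 in RPM. It was 2413 and 3584 in RPR2 replicates 1 and 2, but 12.8 in the library labelled RPR2 replicate 3, where the 8 markers were between 0.10 and 7.47 FPKM and none was at 0. The sum of 8 alveolar type 2 cell markers reached 51962 FPKM there, mostly from the surfactant gene Sftpc (30744 FPKM). It was 1256 and 1984 FPKM in RPR2 replicates 1 and 2 and 15.6 to 892 FPKM in RPM. Club cell markers summed to 3469, 25541 and 842 FPKM in RPR2 and 1.02 to 1565 in RPM. The fits of FPKM with all libraries are therefore set beside those without RPR2 replicate 3. The part of these other cells in the results was not tested, and in bulk RNA fewer dividing cells and less RNA per cell cannot be told apart. The number that opens the description label also differs between the models, with no meaning given, so what it marks and the genotype cannot be told apart.

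Most of the 38 genes were higher in RPM than in RPR2 in the FPKM as deposited. With all 14 libraries 25 of 38 rose and none fell at an adjusted p under 0.05 (limma on log2(FPKM + 1), Benjamini-Hochberg over 15719 genes), where 18.4% of all genes tested were higher and 22.8% lower. The difference was positive for 36 of the 38, with a median of 0.83 on the log2 scale beside -0.06 over all genes tested. RPR2 replicate 3 was the lowest of the RPR2 group for 38 of 38 genes and the lowest of all 14 libraries for 35, and RPR2 replicate 1 was the highest of its group for 37. The mean log2(FPKM + 1) over the 38 genes was 5.06 to 5.37 in RPM, 5.03 and 4.77 in RPR2 replicates 1 and 2, and 3.63 in RPR2 replicate 3.

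Without RPR2 replicate 3, 14 of 38 rose and 1 fell, with 16.4% of all genes tested higher and 27.4% lower, and the median difference was 0.46 beside -0.20 over all genes. All 14 were among the 25. The count also depended on how libraries were scaled. When each library was brought to the same sum (TPM scaling), 7 of 38 rose (Cdk1, Ccnb1, Ccna2, Cenpa, Cenph, Nuf2 and Spc24) and none fell, with 11.9% of all genes higher and 22.8% lower, and the median over all genes moved to -0.23. With TPM scaling and without RPR2 replicate 3, Cenpa alone rose and Cdc25b and Nek2 fell, with 9.66% of all genes higher and 36.5% lower and an all-gene median of -0.58. Measured from the all-gene median of the same setting, the median of the 38 genes was 0.88 higher with FPKM and 0.88 with TPM, and 0.66 and 0.65 without RPR2 replicate 3. TPM scaling multiplies a whole library by the same factor, so all its genes shift nearly alike. This measure therefore stays nearly the same by construction and cannot show whether the rise depends on the scaling. Median-of-ratios scaling gave 28 higher and 1 lower (20.6% and 21.5% of all genes), and 22 and 1 without RPR2 replicate 3 (21.2% and 21.6%). Quantile normalization gave 29 and 1 (23.3% and 19.5%), array weights 29 and 2 (27.3% and 41.8%), an exact Wilcoxon test 19 and 0 (13.8% and 16.4%), and leaving out RPR2 replicate 1 gave 29 and 0 (16.1% and 16.6%). Over all genes tested, 2897 were higher and 3586 lower with FPKM, against 1878 and 3588 with TPM scaling.

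**Figure D2:**
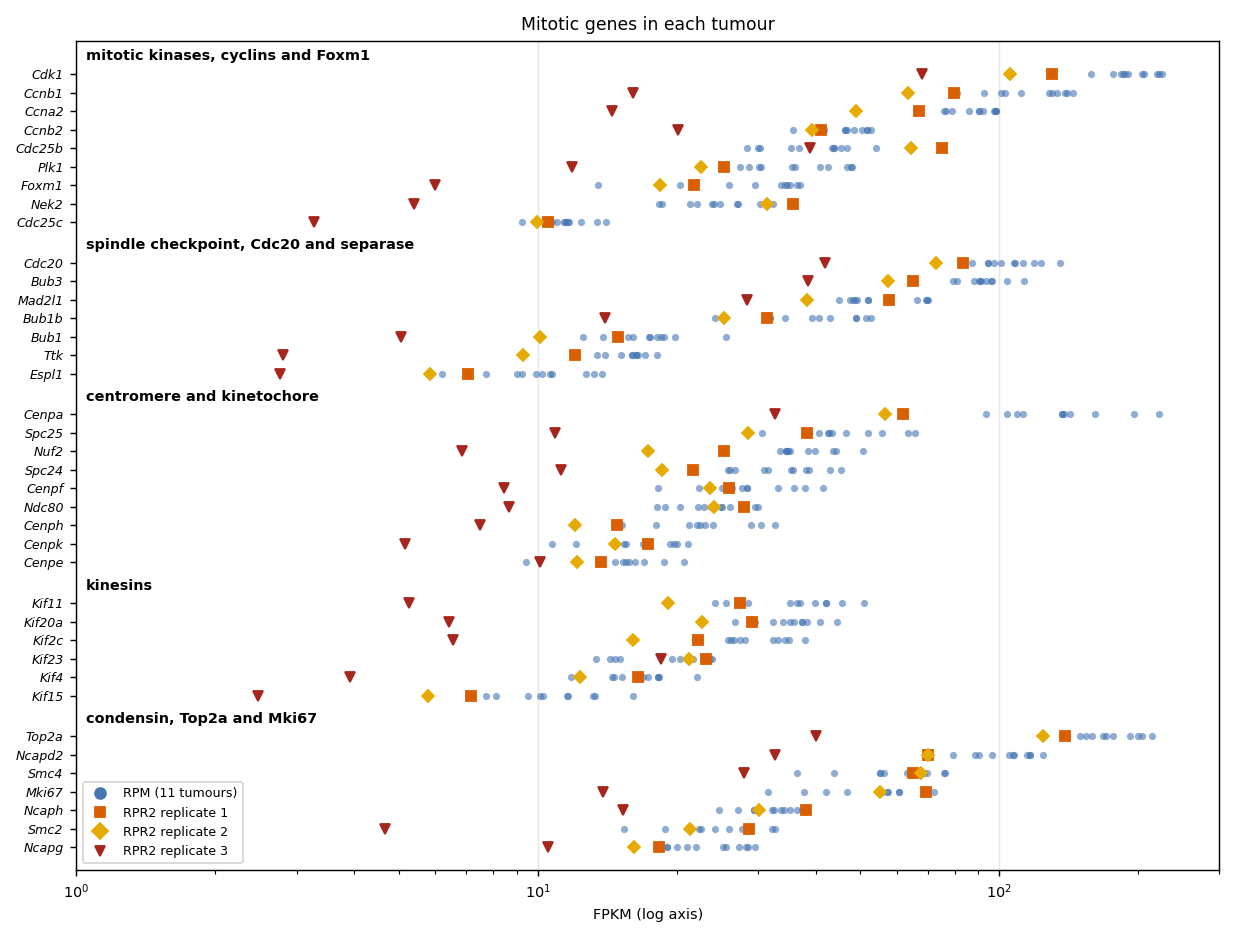
FPKM of the 38 genes in every tumour, on a log axis, grouped by role and ordered by RPM mean. Circles are the 11 RPM tumours and squares, diamonds and triangles are RPR2 replicates 1, 2 and 3; RPR2 replicate 3 is the lowest of all libraries for 35 genes, and for 12 genes every RPM tumour is above every RPR2 tumour.

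For 12 genes every RPM tumour was above every RPR2 tumour in FPKM, where 11.1% of all genes tested showed this: Cdk1, Ccnb1, Ccna2, Plk1, Bub3, Cdc20, Cenpa, Nuf2, Spc24, Ncapg, Ncapd2 and Top2a. No gene of the set was below in all (13.6% of all genes). The same 12 were above RPR2 replicates 1 and 2 alone (16.5% of all genes), and Cdc25b was below both (28.6%). After TPM scaling 2 genes remained apart from all 3 RPR2 libraries, Cenpa and Spc24 (7.23% of all genes above and 13.5% below). The same 2 were above RPR2 replicates 1 and 2 (9.19% of all genes), and Cdc25b, Nek2 and Smc4 were below both (39.8%).

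Among the kinases and cyclins, 7 of 9 rose with all libraries, and 4 rose and 1 fell without RPR2 replicate 3. Counts by role, here and below, stand beside 18.4% of all genes tested higher and 22.8% lower with all libraries. Without RPR2 replicate 3 these shares were 16.4% and 27.4%. Cdk1, the kinase that drives mitosis, was the most abundant gene of the set, with 158 FPKM in the lowest RPM tumour, 190 at the median and 225 in the highest, against 130, 106 and 68.0 in RPR2. The groups did not overlap, and the difference was 0.99 ± 0.17 (SE) on the log2 scale (limma adjusted p = 0.0003) and 0.73 ± 0.15 without RPR2 replicate 3 (limma adjusted p = 0.0013). Ccnb1, cyclin B1, was 80.8, 128 and 144 FPKM (lowest, median and highest) in RPM and 79.9, 63.3 and 16.1 in RPR2. The lowest RPM tumour and the highest RPR2 tumour were nearly level for Ccnb1, and its difference of 1.40 ± 0.34 (limma adjusted p = 0.0039) became 0.70 ± 0.21 without RPR2 replicate 3 (limma adjusted p = 0.014). Ccna2, cyclin A2, was 75.7, 90.4 and 98.6 FPKM in RPM and 66.9, 48.9 and 14.4 in RPR2. In FPKM it had the smallest coefficient of variation of the set among RPM tumours, 9.97%. After TPM scaling Ccna2 ran from 83.9 to 158 in RPM, a wider relative range than that of Ncapg (29.8 to 39.2). Ccna2 rose by 1.26 ± 0.29 (limma adjusted p = 0.0031), and by 0.63 ± 0.15 without RPR2 replicate 3 (limma adjusted p = 0.0040).

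Plk1, the kinase that matures centrosomes and promotes mitotic entry, was 27.5, 36 and 47.9 FPKM in RPM and 25.3, 22.6 and 11.9 in RPR2. Its difference was 0.92 ± 0.23 (limma adjusted p = 0.0045), and 0.61 ± 0.22 without RPR2 replicate 3 (limma adjusted p = 0.036). Ccnb2, Cdc25c and Foxm1 rose with all libraries (differences of 0.52, 0.63 and 1.0), and without RPR2 replicate 3 the differences were 0.20, 0.17 and 0.47 (limma adjusted p = 0.28, 0.39 and 0.23). Foxm1 had the widest range of the set within RPM, from 13.5 to 36.9 FPKM, a ratio of 2.73. Nek2, a centrosome kinase, was 18.4, 24.1 and 32.3 FPKM in RPM and 35.8, 31.3 and 5.38 in RPR2. RPR2 replicate 1 was above the RPM range, replicate 2 near its top and replicate 3 far under it. The difference was 0.36 ± 0.37 with all libraries and -0.45 ± 0.19 without RPR2 replicate 3 (limma adjusted p = 0.47 and 0.073).

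Cdc25b, a phosphatase that activates CDK1 at the start of mitosis, had the most negative difference of the set. It was 28.3, 43.5 and 54.1 FPKM in RPM and 75.0, 64.4 and 39.0 in RPR2. RPR2 replicates 1 and 2 were above every RPM tumour, and replicate 3 was inside the RPM range. The difference was -0.54 ± 0.22 with all libraries (limma adjusted p = 0.057) and -0.81 ± 0.22 without RPR2 replicate 3 (limma adjusted p = 0.0081). In rank by mean FPKM among the 38 genes, Cdc25b was 15 in RPM and 4 in RPR2. The negative sign was kept in all 30 alternative settings, in 9 of which the gene was called lower.

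**Figure D3:**
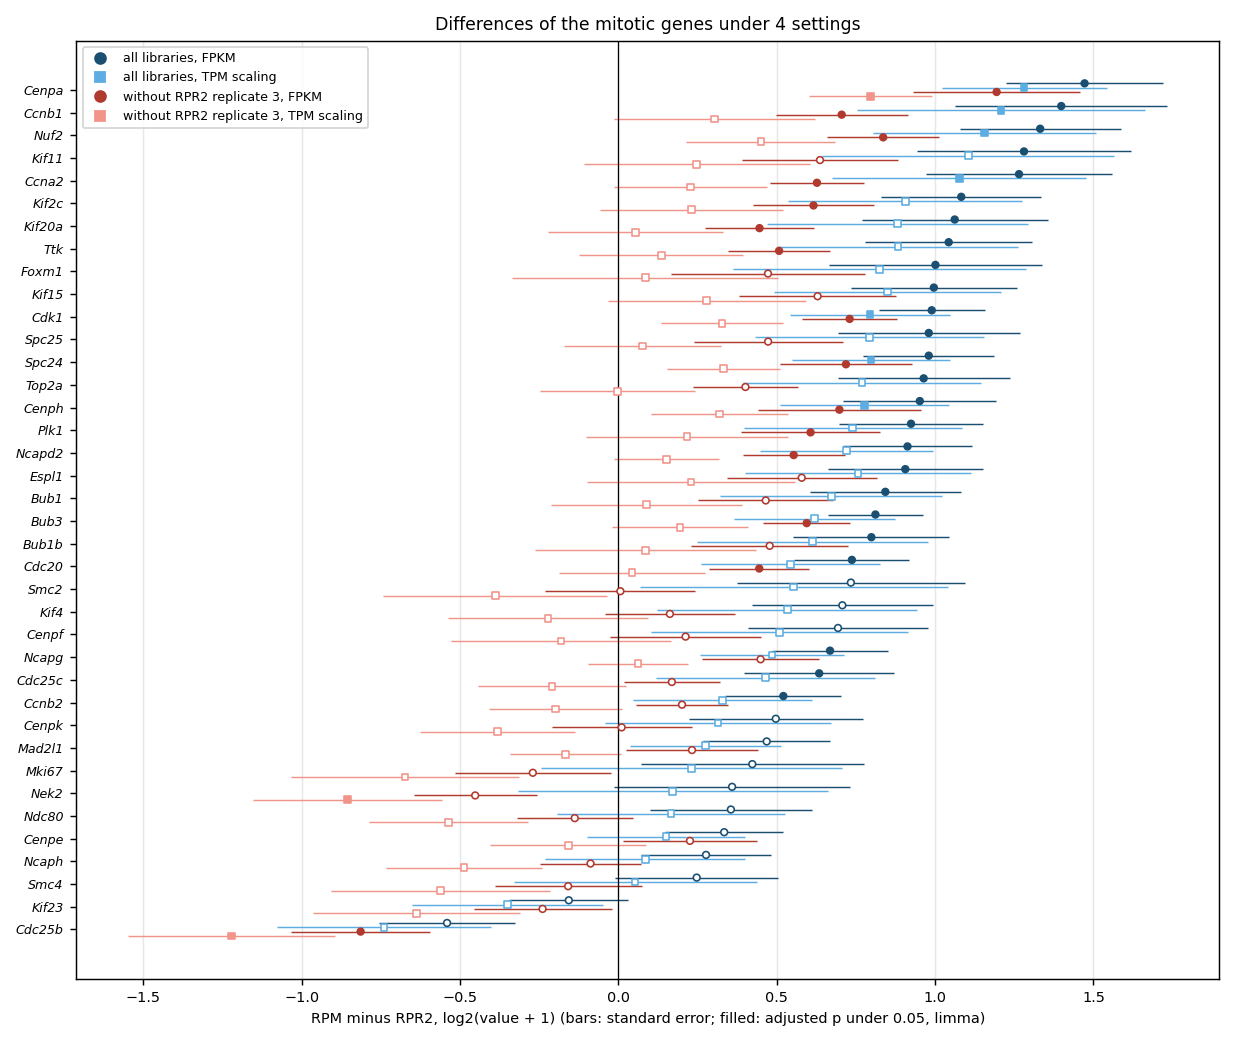
Difference of RPM minus RPR2 for each gene on the log2(value + 1) scale with its standard error, under 4 settings: all libraries or without RPR2 replicate 3, each in FPKM or after TPM scaling. Filled symbols have a limma adjusted p under 0.05; Cenpa is filled in all 4 settings, and the symbols without RPR2 replicate 3 after TPM scaling centre near 0, with a median of 0.069.

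Of the spindle checkpoint genes, with Cdc20 and separase, 6 of 7 rose with all libraries and 3 (Bub3, Ttk and Cdc20) without RPR2 replicate 3. After TPM scaling none of the 7 passed the test. Bub3, which brings checkpoint kinases to the kinetochore, was 79.4, 91.4 and 113 FPKM in RPM and 65.0, 57.3 and 38.5 in RPR2, with no overlap. It differed by 0.81 ± 0.15 (limma adjusted p = 0.00056), and by 0.59 ± 0.14 without RPR2 replicate 3 (limma adjusted p = 0.0031). Cdc20, the activator of the anaphase-promoting complex that the checkpoint restrains, was 87.2, 108 and 135 FPKM in RPM and 83.5, 72.9 and 42.0 in RPR2. All RPM tumours were above the RPR2 tumours, by a small gap at the nearest pair, and the difference was 0.74 ± 0.18 (limma adjusted p = 0.0047), and 0.44 ± 0.16 without RPR2 replicate 3 (limma adjusted p = 0.034).

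Ttk, the MPS1 kinase that starts checkpoint signalling, was 12.0, 16.0 and 18.1 FPKM in RPM and 12.0, 9.27 and 2.80 in RPR2. Its difference was 1.04 with all libraries and 0.51 without RPR2 replicate 3 (limma adjusted p = 0.0055 and 0.020). Bub1 and Bub1b, a kinase and its relative that bind at unattached kinetochores, and Espl1, the separase that cuts cohesin, rose with all libraries (differences of 0.84, 0.80 and 0.91). Without RPR2 replicate 3 their differences were 0.47, 0.48 and 0.58 (limma adjusted p = 0.090, 0.13 and 0.061). Espl1 was the least abundant gene of the set in RPM, at a mean of 10.3 FPKM ± 2.30 (SD, n = 11). Mad2l1, which encodes the checkpoint protein MAD2, was 45.0, 51.9 and 70.0 FPKM in RPM and 57.6, 38.3 and 28.4 in RPR2, and its difference of 0.47 ± 0.20 did not pass the test (limma adjusted p = 0.074), nor did that of 0.23 without RPR2 replicate 3 (limma adjusted p = 0.38).

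At the centromere and kinetochore, 5 of 9 genes rose with all libraries (Cenpa, Cenph, Nuf2, Spc24 and Spc25) and 4 of them, all but Spc25, without RPR2 replicate 3. Cenpa, the histone H3 variant that marks the centromere, had the largest difference of the set. It was 93.5, 137 and 222 FPKM in RPM and 61.9, 56.4 and 32.7 in RPR2, so that the lowest RPM tumour was well above the highest RPR2 tumour. The ratio of the group means was 2.80, and 2.38 against RPR2 replicates 1 and 2. The difference was 1.47 ± 0.25 (limma adjusted p = 0.00029) and 1.19 ± 0.26 without RPR2 replicate 3 (limma adjusted p = 0.0024). After TPM scaling without that library it was 0.80 ± 0.20 (limma adjusted p = 0.0045), and Cenpa was called higher in all 30 alternative settings, with a highest adjusted p of 0.033. In FPKM it also varied most within RPM, with a coefficient of variation of 27.9%. After TPM scaling Cenpa ran from 144 to 236 in RPM, a narrower relative range than that of Foxm1 (14.4 to 59.2).

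The NDC80 complex, made of the products of Ndc80, Nuf2, Spc24 and Spc25, holds microtubules at the outer kinetochore. Nuf2 was 33.4, 35.1 and 50.6 FPKM in RPM and 25.4, 17.3 and 6.84 in RPR2, with no overlap. Its difference was 1.33 ± 0.25 (limma adjusted p = 0.00075), 0.84 ± 0.18 without RPR2 replicate 3 (limma adjusted p = 0.0017) and 0.45 ± 0.24 when TPM scaling was used as well (limma adjusted p = 0.13). Spc24 was 25.8, 35.4 and 45.4 FPKM in RPM and 21.7, 18.6 and 11.2 in RPR2, and rose by 0.98 ± 0.21 (limma adjusted p = 0.0016), and by 0.72 without RPR2 replicate 3 (limma adjusted p = 0.012). Spc25 rose by 0.98 ± 0.29 with all libraries, and without RPR2 replicate 3 its difference was 0.47 ± 0.23 (limma adjusted p = 0.12). Ndc80 itself was 18.1, 23.7 and 30.0 FPKM in RPM and 28.0, 24.1 and 8.68 in RPR2. RPR2 replicates 1 and 2 were inside the RPM range, and the difference was 0.35 ± 0.26 with all libraries and -0.14 ± 0.18 without RPR2 replicate 3 (limma adjusted p = 0.29 and 0.56).

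Cenph, a subunit of the inner kinetochore network that assembles on CENP-A chromatin, was 14.8, 22.5 and 32.7 FPKM in RPM and 14.9, 12.1 and 7.49 in RPR2, a difference of 0.95 ± 0.24 (limma adjusted p = 0.0057) that was 0.70 without RPR2 replicate 3 (limma adjusted p = 0.040). Cenpk of the same network, the kinetochore motor gene Cenpe and Cenpf did not pass the test, with differences of 0.50, 0.33 and 0.69 with all libraries (limma adjusted p = 0.16, 0.17 and 0.062) and of 0.01, 0.23 and 0.21 without RPR2 replicate 3.

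Of the 6 kinesins 4 rose with all libraries and 2 without RPR2 replicate 3. Kif2c, which takes apart microtubules at the centromere, was 22.2, 28.1 and 38 FPKM in RPM and 22.2, 16.1 and 6.56 in RPR2. It rose by 1.08 ± 0.25 (limma adjusted p = 0.0032), and by 0.62 ± 0.19 without RPR2 replicate 3 (limma adjusted p = 0.018). Kif20a, needed for cytokinesis, was 26.7, 36 and 44.5 FPKM in RPM and 29.1, 22.7 and 6.41 in RPR2, with the highest RPR2 tumour inside the RPM range. It rose by 1.06 ± 0.29 (limma adjusted p = 0.0097), and by 0.45 ± 0.17 without RPR2 replicate 3 (limma adjusted p = 0.049). Kif11 and Kif15, which push spindle poles apart, rose with all libraries by 1.28 and 1.0, and without RPR2 replicate 3 differed by 0.64 and 0.63 (limma adjusted p = 0.050 and 0.053). Kif4, a chromosome-arm motor, did not pass the test (0.71 ± 0.29, limma adjusted p = 0.060, and 0.16 without RPR2 replicate 3). Kif23 of the central spindle was 13.4, 20.4 and 23.8 FPKM in RPM and 23.1, 21.2 and 18.5 in RPR2. All 3 RPR2 tumours were inside the RPM range, and the difference was -0.16 ± 0.19 (limma adjusted p = 0.54), and -0.24 without RPR2 replicate 3 (limma adjusted p = 0.39).

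Among condensin, Top2a and Mki67, 3 of 7 rose with all libraries (Ncapg, Ncapd2 and Top2a), beside 18.4% of all genes tested. Without RPR2 replicate 3 Ncapd2 alone rose, 1 of 7 beside 16.4% of all genes, and the median of the 7 differences was 0.01. Ncapd2, a subunit of condensin I, was 79.5, 107 and 125 FPKM in RPM and 70.2, 70.2 and 32.7 in RPR2. It rose by 0.91 ± 0.20 (limma adjusted p = 0.0024), and by 0.55 ± 0.16 without RPR2 replicate 3 (limma adjusted p = 0.013). Top2a, the topoisomerase that untangles sister chromatids, was the second most abundant gene of the set, with 140, 170 and 214 FPKM in RPM and 139, 124 and 40.0 in RPR2. Its lowest RPM tumour stood at the level of RPR2 replicate 1, and its difference of 0.96 ± 0.27 (limma adjusted p = 0.011) became 0.40 ± 0.16 without RPR2 replicate 3 (limma adjusted p = 0.062).

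The shared condensin ATPase genes Smc2 and Smc4 did not pass the test, with differences of 0.73 and 0.25 with all libraries and 0.01 and -0.16 without RPR2 replicate 3. Ncaph, the subunit that closes the condensin I ring, differed by 0.28 ± 0.20 (limma adjusted p = 0.30), and by -0.088 without RPR2 replicate 3. Mki67, whose Ki-67 product is the usual marker of dividing cells, was 31.5, 55.8 and 72.2 FPKM in RPM and 69.5, 55.1 and 13.9 in RPR2. RPR2 replicate 1 was close to the top of the RPM range and replicate 2 near its median. The Mki67 difference was 0.42 ± 0.35 with all libraries and -0.27 ± 0.25 without RPR2 replicate 3 (limma adjusted p = 0.36 and 0.39).

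Ratios of genes within a library do not depend on how libraries are scaled. Of the 703 pairs among the 38 genes, 126 (17.9%) had ratios that did not overlap between the models. Among 15 pairs of Cdk1 and its activators 7 did not overlap, among 6 pairs of the NDC80 complex 2, among 10 pairs of condensin I 1, and among 10 pairs of checkpoint genes 0. Every pair that held Cdc25b was among the 7, so most of that count came from a single gene. The other pairs among the 7 were Cdk1 over Ccnb2 and Ccna2 over Cdc25c. Cdk1 over Cdc25b was 3.40, 5.05 and 7.95 (lowest, median and highest) in RPM and 1.74, 1.64 and 1.74 in RPR2. Here RPR2 replicate 3 was level with the other RPR2 tumours, and every RPM ratio was above all of theirs. Cdk1 over Ccnb2 was 3.51, 4.37 and 4.73 in RPM and 3.17, 2.68 and 3.37 in RPR2.

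Ndc80 over Nuf2 was 0.52, 0.62 and 0.76 in RPM and 1.10, 1.39 and 1.27 in RPR2. Ndc80 over Spc25 was 0.41, 0.51 and 0.62 in RPM and 0.73, 0.84 and 0.80 in RPR2. Within the NDC80 complex, Ndc80 was thus the less abundant partner of Nuf2 in every RPM tumour and the more abundant in every RPR2 tumour. In condensin I, Ncapd2 over Ncaph was 2.42, 3.11 and 4.37 in RPM and 1.84, 2.33 and 2.13 in RPR2. Smc2 over Smc4 kept to 0.37 to 0.44 in RPM and was 0.44, 0.32 and 0.17 in RPR2, so the RPR2 tumours overlapped the RPM range and differed among themselves.

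**Figure D4:**
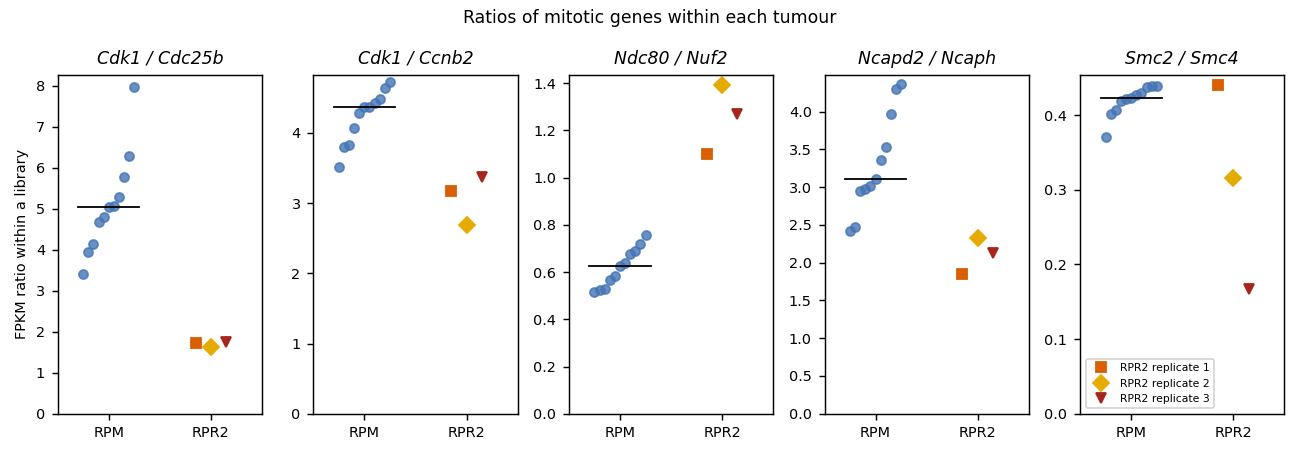
Ratio of FPKM of 2 genes within each library for 5 pairs, on linear axes that start at 0. Circles are the RPM tumours sorted by value with their median as a line and the other symbols are the 3 RPR2 tumours; the models are apart in the first 4 panels and overlap for Smc2 over Smc4.

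Relative to the mean log2 value of the 38 genes in the same library, Ccna2 and Nuf2 were higher in every RPM tumour than in every RPR2 tumour (1.27% of all genes tested), and Cdc25b, Kif23 and Ncaph were lower (36.2%). When libraries were scaled so that this mean was equal, 5 genes rose (Ccnb1, Ccna2, Cenpa, Nuf2 and Kif11) and 5 fell (Cdc25b, Ndc80, Kif23, Smc4 and Ncaph), with 4.03% of all genes higher and 54.2% lower. Without RPR2 replicate 3 the same scaling gave 2 higher (Cenpa and Nuf2) and 6 lower (9.15% and 43% of all genes). That scaling fixes the mean of the set at no difference and shows only which members were above or below it.

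Among the 11 RPM tumours the 38 genes varied by 9.97% to 27.9% of their mean (coefficient of variation). Values in this paragraph are in FPKM unless stated, and the FPKM sums of these libraries ran from 599119 to 939971. RPM replicate 2, an LSL/+ tumour with the lowest Myc of the group at 48.4 FPKM, was the lowest for 16 genes and the highest for 5. Its FPKM sum was the largest of all libraries, so TPM scaling lowers its values relative to the others. RPM replicate 1 was the lowest for 7 and replicate 6 the highest for 7. Mad2l1 was at 66.3 to 70.0 FPKM in replicates 1 to 4 and 45.0 to 52.1 in replicates 5 to 11, with no value between. After TPM scaling the ranges overlapped, at 74.4 to 96.9 in replicates 1 to 4 and 66.8 to 82.2 in replicates 5 to 11. Over the 55 pairs of RPM tumours the median absolute log2 difference across the 38 genes ranged from 0.077 to 0.51. The pair with a shared title number, replicates 10 and 11, was the closest at 0.077, and the other such pair, replicates 6 and 7, had rank 4 of the 55 at 0.12.

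**Figure D5:**
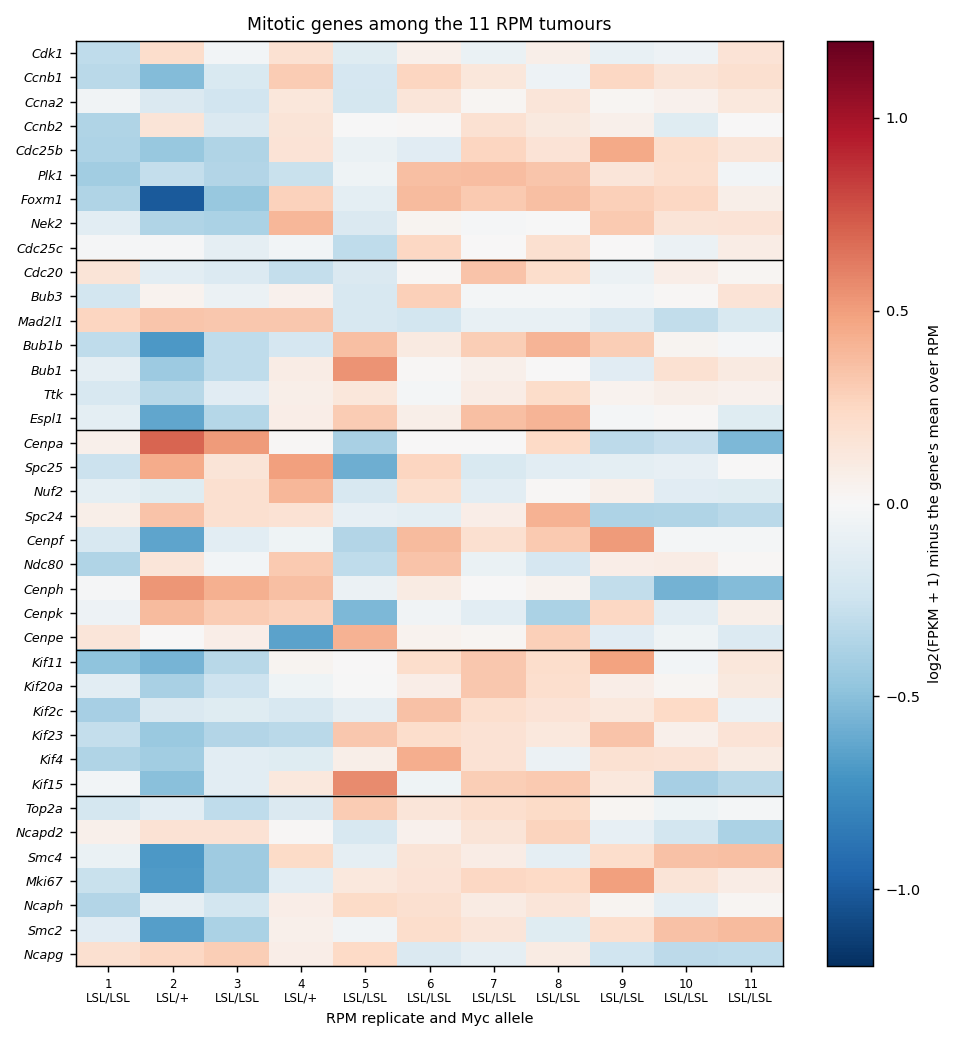
Level of each gene in each RPM tumour as log2(FPKM + 1) minus the gene's mean over the 11 RPM tumours, with genes in the order of roles and tumours labelled by replicate and Myc allele. Blue is lower and red higher. In FPKM, replicate 2 is the lowest tumour for 16 genes, and Mad2l1 is at its 4 highest values in replicates 1 to 4.

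The Myc allele gave no call in the set. Between the 9 LSL/LSL and the 2 LSL/+ tumours, 0 of 38 genes were higher (0% of all genes tested) and 0 lower (0.00673%, or 1 gene of 14862) by limma. At an unadjusted p under 0.05 there were 6 of 38 (Bub1b, Mad2l1, Cenph, Spc25, Kif23 and Mki67), where 17.3% of all genes had such a p. The smallest was for Spc25, with a difference of -0.57 ± 0.19 (limma adjusted p = 0.24). Spc25 was at 30.6 to 55.6 FPKM in LSL/LSL tumours and 63.5 and 65.5 in LSL/+ tumours. After TPM scaling the groups overlapped, at 42.4 to 89.2 in LSL/LSL tumours and 67.6 and 91.1 in LSL/+ tumours. The median difference of the 38 genes was 0.17 beside 0.16 over all genes, and without RPM replicate 2 it was -0.07.

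Further genes of the same machinery were described from 8 other lists. Their counts stand beside 18.4% of all genes tested higher and 22.8% lower with all libraries, and 16.4% and 27.4% without RPR2 replicate 3. With TPM scaling and without that library, the genes named from these lists by smallest adjusted p and described here were called as follows. Cenpn, Ska3, Pmf1, Bora and Cks1b were higher and Rbl1 and Ncaph2 lower, and the others did not pass the test. Of 17 genes of the inner centromere network 10 rose and none fell with all libraries, and 8 rose and 1 fell without RPR2 replicate 3. Cenpn, which reads CENP-A nucleosomes, was 11.8, 18.7 and 23.1 FPKM in RPM and 6.33, 6.55 and 3.67 in RPR2, and rose by 1.51 ± 0.23 (limma adjusted p = 0.0001). It kept a difference of 0.95 after TPM scaling without RPR2 replicate 3 (limma adjusted p = 0.0087). Oip5, of the complex that prepares centromeres for new CENP-A, rose by 1.26, and Cenpp of the inner network by 1.03 (0.92 and 0.81 without RPR2 replicate 3). Of 12 genes of the KNL1, MIS12 and SKA complexes of the outer kinetochore 7 rose, and 2 without RPR2 replicate 3. Ska3 was 11.1, 13.4 and 14.8 FPKM in RPM and 6.20, 6.15 and 4.43 in RPR2, a difference of 1.11 ± 0.14 (limma adjusted p = 2.6e-05) that was 0.97 without RPR2 replicate 3. Pmf1 was 48.3, 66.9 and 83.75 FPKM in RPM and 37.4, 31.4 and 54.4 in RPR2, with RPR2 replicate 3 inside the RPM range. It rose by 0.73 ± 0.17 (limma adjusted p = 0.0038), by 0.95 without RPR2 replicate 3, and by 0.55 when TPM scaling was used as well (limma adjusted p = 0.021).

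Condensin II is the form of condensin that sits in the nucleus throughout the cell cycle. Of its 3 own subunits none rose and 1 fell in FPKM with all libraries, and all 3 fell without RPR2 replicate 3. For Ncaph2 the difference without that library was -0.29 (limma adjusted p = 0.048). It was -0.69 with TPM scaling as well (limma adjusted p = 0.0084) and -0.04 with median-of-ratios scaling as well (limma adjusted p = 0.81). Ncaph2 was 83.0, 91.3 and 101 FPKM in RPM and 114, 108 and 108 in RPR2, with no overlap, and fell by 0.28 (limma adjusted p = 0.037), a call lost with TPM scaling of all libraries (limma adjusted p = 0.061) and with median-of-ratios scaling (limma adjusted p = 0.27). Ncapd3 and Ncapg2, named here after their values were seen, were 27.1 and 26.3 FPKM in RPR2 replicate 1, 21.5 and 21.5 in replicate 2 and 5.13 and 3.48 in replicate 3, against RPM medians of 12.2 and 14.4.

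Of 15 cohesin genes 3 rose (Cdca5, which encodes sororin, the acetyltransferase gene Esco2, and the cohesin protector gene Sgo1) and none fell with all libraries, or 3 of 15 against 18.4% of all genes, and 2 rose and 2 fell without RPR2 replicate 3. Sgo1 went from 0.67 with all libraries to 0.23 without RPR2 replicate 3 (limma adjusted p = 0.31). Cdca5 went from 1.2 to 0.73, and Esco2 from 1.09 to 0.73. Of 18 genes of the anaphase-promoting complex and its partners 6 rose and 1 fell, and 5 rose and 1 fell without that library. The complex's ubiquitin-conjugating enzymes Ube2c and Ube2s were 109 to 230 and 278 to 601 FPKM in RPM, against 89.1, 78.1 and 64.7 and 232, 203 and 127 in RPR2. Of 24 further spindle and cytokinesis genes 9 rose and none fell, and 4 rose and 1 fell without RPR2 replicate 3. Melk, Kif22 and Kifc1 had the smallest adjusted p of these, with differences of 0.93, 0.91 and 1.17 with all libraries and 0.60, 0.53 and 0.58 without RPR2 replicate 3. With TPM scaling of all libraries Melk and Kif22 did not pass the test (limma adjusted p = 0.060 and 0.082). With TPM scaling and without that library the 3 differences were 0.23, 0.14 and 0.19 (limma adjusted p = 0.43, 0.63 and 0.45).

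In the list of mitotic entry regulators 11 of 12 genes were tested, of which 4 rose and 2 fell with all libraries and 4 rose and 3 fell without RPR2 replicate 3. Bora, a cofactor for the activation of PLK1, was 11.8, 15.1 and 17.9 FPKM in RPM and 4.28, 3.62 and 4.63 in RPR2. Every RPM tumour was above every RPR2 tumour, and the difference was 1.60 ± 0.15 (limma adjusted p = 2.3e-06) and 1.37 after TPM scaling without RPR2 replicate 3 (limma adjusted p = 0.00035). Cks1b, whose small protein binds cyclin-dependent kinases, was 102, 142 and 219 FPKM in RPM and 44.6, 34.1 and 73.2 in RPR2, a difference of 1.57 ± 0.24 (limma adjusted p = 0.00012). Its relative Cks2 rose by 0.92 ± 0.20 (limma adjusted p = 0.0017), and by 0.81 without RPR2 replicate 3, where Cks1b differed by 1.87.

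Of 12 genes of the DREAM complex and its MYB-bound form 2 rose and 2 fell with all libraries, and 2 rose and 5 fell without RPR2 replicate 3. The shares of all genes were 18.4% higher and 22.8% lower, and 16.4% and 27.4% without that library. Rbl1, which encodes p107, was 2.88, 5.69 and 8.34 FPKM in RPM and 17.3, 15.7 and 11 in RPR2. Every RPR2 tumour was above every RPM tumour, and Rbl1 fell by 1.24 on the log2 scale (limma adjusted p = 0.00058), and by 1.42 without RPR2 replicate 3 (limma adjusted p = 0.00051). Mybl2, which encodes B-MYB, was 14.1, 21.7 and 36.4 FPKM in RPM and 12.5, 8.0 and 8.53 in RPR2, and rose by 1.19 ± 0.25 (limma adjusted p = 0.0016), and by 1.12 without RPR2 replicate 3. Tfdp1, the E2F partner, rose by 1.04 ± 0.25 (limma adjusted p = 0.0041), and by 0.60 without RPR2 replicate 3 (limma adjusted p = 0.029). It did not pass the test with TPM scaling (0.85, limma adjusted p = 0.084), or with TPM scaling without that library (0.20, limma adjusted p = 0.60).

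Some of these values can hold reads of other genes. Near-identical copies are annotated for Ccnb1, Mad2l1 and Mki67, and those listed in the table were at most 0.30 FPKM. Kif20a shares 1271 exon bases with Cdc23 on the opposite strand, Ncapg 944 with Lcorl, Kif4 832 with Pdzd11, Cdc25c 623 with Gm3550 and Ccna2 510 with Exosc9. The libraries were made with a stranded kit, but the strand setting of the counting is not given in the sources used here. Overlaps on the same strand cannot be separated by strand. Ncapd2 shares 237 such bases with Scarna10 and 235 with Gm28967. Foxm1 shares 144 with Tex52 and 97 with Gm44596, and Top2a 122 with Gm23451.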

How the data were processed

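RNA from 11 RPM and 3 RPR2 tumours was sequenced from stranded, poly(A)-selected libraries, per the labels' protocols. The authors deposited 1 table of FPKM values per gene and library, and RSEM 1.2.12, Bowtie 1.0.1 and mm10 are named in the submitters' processing notes, with no roles or settings. Which annotation was used, and whether libraries were scaled, is not given in the sources used here. Reads that fit more than 1 gene are split by RSEM.

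The members, the lists and the rule for named genes were chosen with earlier results of these data known. All 38 members could be named, with up to 3 genes of smallest adjusted p from each further list, Myc and Rbl2, and marker genes as sums. The genes tested reached 1 FPKM in 3 or more libraries. Values were log2(FPKM + 1) (pseudocount 1, so differences of low genes are understated), and models were fitted with limma 3.58.1 in R 4.3.3, with empirical Bayes and a trend, Benjamini-Hochberg adjustment over all genes tested and a threshold of 0.05. The fit of RPM against RPR2 used all 14 libraries and that of the Myc allele the 11 RPM tumours. The table holds no counts. From 65.2% to 70.5% of low values per library lay within 0.1 of whole reads at the estimated depth, at which 3 reads on a gene of 2 kb equal 0.068 to 0.089 FPKM, counting error only. No 2 libraries held identical values.

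In data simulated on 15719 genes for RPM against RPR2, 200 genes were moved, with independent noise for each gene. The test found 46% of the shifts of 1 (log2 scale) and 88% of the shifts of 2, and called 7 unmoved genes. Far more genes were called in the tumours, and the members were low together in RPR2 replicate 3, so these shares need not hold there. In the simulation of the allele comparison on 14862 genes the test recovered 35% and 79%. Alternatives (30 for RPM against RPR2) covered the pseudocount, the filter, the scaling, weights, an exact Wilcoxon test, the shared title numbers, the allele and each library left out. TPM scaling brought each library to an equal sum, and median-of-ratios scaling used size factors. Settings that combined another scaling with leaving out RPR2 replicate 3 were added after seeing the data. Gene positions are from GENCODE on GRCm38 and promoters from RefSeq; copies were searched with BLAST+ 2.17.0.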

Additional observations from a re-analysis of the deposited data

How the results depend on the processing

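The number of members higher in RPM was 25 as reported and 7 with TPM scaling, 5 with scaling on the members, 1 with TPM scaling without RPR2 replicate 3 and 2 with scaling on the members without that library. With 1 library left out it ran from 14 (RPR2 replicate 3) to 29 (RPR2 replicate 1). In the remaining settings it was 19 to 29. The number lower in RPM was 0 as reported, 1 with median-of-ratios scaling (also without RPR2 replicate 3) and with quantile normalization, 2 with array weights and with TPM scaling without RPR2 replicate 3, 5 with scaling on the members and 6 with that scaling without RPR2 replicate 3, and 0 to 1 with 1 library left out. The median difference of the members was 0.83, and 0.46 to 1.11 with 1 library left out, 0.065 with scaling on the members, 0.069 with TPM scaling without RPR2 replicate 3 and 0.12 with scaling on the members without it.

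Over all genes, 2897 were higher and 3586 lower. The number higher was 1878 with TPM scaling, 634 with scaling on the members, 1488 with TPM scaling and 1410 with scaling on the members when RPR2 replicate 3 was also left out, and 2276 to 3033 with 1 library left out. The number lower was 2171 with a mean FPKM of at least 5 (fewer genes tested), 8524 with scaling on the members, 6577 with array weights, 5627 and 6617 with TPM scaling and scaling on the members without RPR2 replicate 3, and 2360 to 4227 with 1 library left out. For the Myc allele the members higher and lower were 0 in every setting, including each tumour left out. All genes higher were 0, and 4 with a pseudocount of 0.1 and 0 to 6 with 1 tumour left out; all genes lower were 1, and 30 without a filter, 0 with TPM scaling and 0 to 1 with 1 tumour left out. The median difference of the members was 0.17, and 0.42 with TPM scaling, -0.016 with median-of-ratios scaling and -0.071 to 0.20 with 1 tumour left out. The cause of these shifts was not tested, except where a setting tests fewer genes or samples.

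Differences of single members changed sign as follows. Without RPR2 replicate 3 they became negative for 5 members, whose values with 1 library left out ran from -0.45 to 0.81 (Nek2), -0.14 to 0.65 (Ndc80), -0.16 to 0.46 (Smc4), -0.088 to 0.54 (Ncaph) and -0.27 to 0.85 (Mki67). With TPM scaling without that library they were -0.20 (Ccnb2), -0.21 (Cdc25c), -0.86 (Nek2), -0.17 (Mad2l1), -0.16 (Cenpe), -0.18 (Cenpf), -0.38 (Cenpk), -0.54 (Ndc80), -0.22 (Kif4), -0.39 (Smc2), -0.56 (Smc4), -0.49 (Ncaph), -0.0031 (Top2a) and -0.67 (Mki67). With median-of-ratios scaling without that library they were -0.21 (Nek2) and -0.027 (Mki67). Scaling on the members gave -0.24 (Ccnb2), -0.13 (Cdc25c), -0.40 (Nek2), -0.29 (Mad2l1), -0.025 (Cdc20), -0.43 (Cenpe), -0.068 (Cenpf), -0.26 (Cenpk), -0.41 (Ndc80), -0.055 (Kif4), -0.028 (Smc2), -0.51 (Smc4), -0.094 (Ncapg), -0.49 (Ncaph) and -0.34 (Mki67). The same scaling without RPR2 replicate 3 gave -0.14 (Ccnb2), -0.17 (Cdc25c), -0.79 (Nek2), -0.11 (Mad2l1), -0.11 (Cenpe), -0.13 (Cenpf), -0.33 (Cenpk), -0.48 (Ndc80), -0.18 (Kif4), -0.33 (Smc2), -0.50 (Smc4), -0.43 (Ncaph) and -0.61 (Mki67). Array weights gave -0.31 (Nek2), -0.050 (Ndc80), -0.077 (Smc4) and -0.034 (Mki67), the Wilcoxon test's estimate was -0.23 (Nek2), and quantile normalization gave 0.0092 (Kif23). No paired analysis was possible because the replicate numbers were given in accession order and pair no tumours between the models. The small RPR2 group and the estimated depth limit the precision of these values.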
